A study of Mus musculus with 6 samples.

Results

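The 9 genes Il33, Il1a, Il1b, Il1rn, Il18, Tslp, S100a8, S100a9 and Tnf, described here as alarmins, IL-1 family cytokines and their companions, were taken by name from the 24077 genes of the single-cell table and the 30828 genes of the spatial tables. All 9 had a row in both. The genes were measured in uteri of 12-month-old CD-1 mice that had been given corn oil (control, CO) or the synthetic estrogen diethylstilbestrol (DES) at 1 mg/kg/day as newborns, on days 1 to 5 after birth. Adult CO mice were in estrus when collected and DES mice were in persistent estrus. Single-cell RNA sequencing gave 1 CO library from 2 pooled mice and 1 DES library from 4 pooled mice, and spatial transcriptomics gave 2 CO and 2 DES tissue sections, called A and B, each from 1 mouse. A pathologist had checked the DES sections for adenocarcinoma, 2 mice per condition were then selected, and blocks were cored to areas of interest. The paper describes its DES mice as having adenocarcinoma, so treatment and tumor cannot be told apart in these comparisons. The CO B section had a tissue fold, and the paper calls DES B limited for identifying clusters. Both conditions shared strain and age.

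Alarmins are proteins that injured or stressed cells release to alert neighbouring cells. IL-33 and IL-1 alpha are held in the nucleus of barrier cells and are active once released, whereas IL-1 beta and IL-18 are made as precursors that the enzyme caspase-1 cuts within an inflammasome. IL-1 receptor antagonist blocks the IL-1 receptor, TSLP is a barrier cytokine that acts on dendritic cells and lymphocytes, and S100A8 and S100A9 pair as calprotectin, an abundant neutrophil protein.

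The deposited values were counts of unique molecular identifiers (UMIs), each of which stands for 1 captured RNA molecule. Levels below are counts scaled to a common total within each group of cells or spots (CPM), with exact Poisson 95% intervals that cover counting error only. The CO library held 32387 cells, 12253 of them with a cell type from the authors, and the DES library held 16312 cells, 9701 with a cell type. Median UMIs per typed cell were 10775 in CO and 17035 in DES. Cells without a type had medians of 4137.5 and 2178 UMIs. The libraries shared 180 cell barcodes, and all 432 member levels by cell type or cluster stayed within their interval without those cells. The authors had removed potential doublets with scran, and no further caller was run. The 4 sections held 1357 to 1834 spots and 9117099 to 12506177 UMIs, and a spot is a small region that can hold several cells. A single library stood for each condition, which allows no test of cells, so cell levels are given as values. Section values are given in the order A, B. Sections were tested with edgeR's quasi-likelihood test on UMIs summed per section, with Benjamini-Hochberg adjustment over all genes tested and a threshold of 0.05.

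Across whole sections, Il33 was the 1 member of 9 that passed the test, and it was higher in DES uteri. Of 14098 genes tested, 2.67% were called higher in DES. Il33 stood at 25.3 and 23.6 CPM in the CO sections and at 300.1 and 297.3 in the DES sections, or 24.4 ± 1.2 against 298.7 ± 2.0 (SD, n = 2 each). The conditions did not overlap. CO B without its cluster 10, 17 of its spots described further on, stood at 10.15 CPM. The log2 fold change was 3.40 (SE 0.18, 95% interval 2.95 to 3.86, adjusted p = 0.0141 by edgeR), a 10.6-fold difference. Leaving out DES A or DES B kept the change at 3.41 or 3.36 with adjusted p of 0.0515 or 0.0604, in fits where the remaining DES section was assumed to vary like the CO sections. In bulk sums of this kind, a change in the number of cells that carry a transcript and a change in RNA per cell cannot be told apart. The sections also differed in makeup, with muscle markers at 14760 and 16170 CPM in CO and 3562 and 4036 in DES, stromal markers at 3258 and 3606 against 2100 and 1302, and epithelial markers at 3582 and 2125 against 3557 and 3865. The part of that makeup in the member levels was not tested beyond the spot classes given next.

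**Figure D1:**
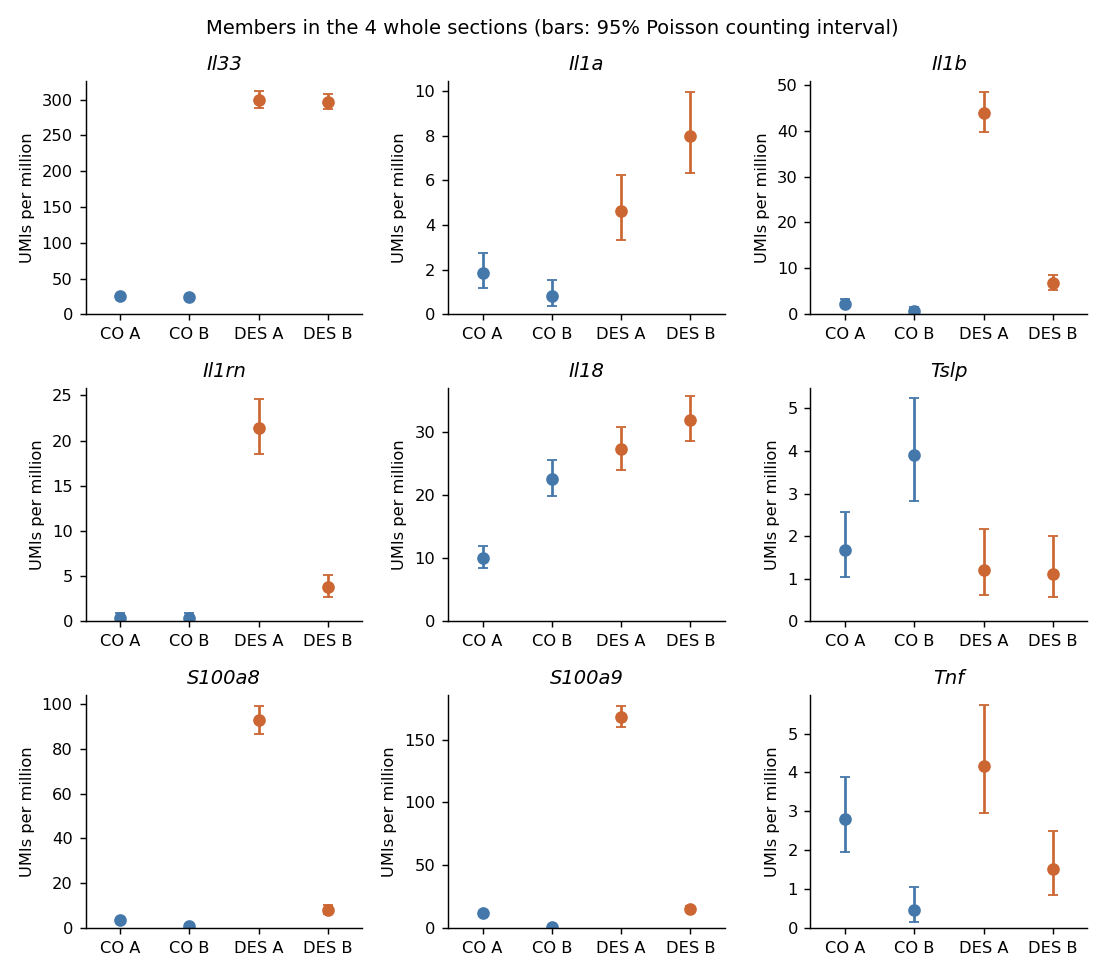
Level of each of the 9 members (CPM, vertical axis from 0) in the 4 sections (CO A and CO B in blue, DES A and DES B in orange), with 95% Poisson bars. The 2 DES points for Il33 lie near 300 CPM, against about 24.4 in CO, while Il1b, Il1rn, S100a8 and S100a9 have 1 high point, DES A.

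For 7 of the 9 members both DES sections lay above both CO sections, as they did for 43.8% of all genes tested. The share over all genes is large, and 6 of those 7 members did not pass the test. Il1a, which encodes the alarmin IL-1 alpha, stood at 1.84 and 0.816 CPM in CO and at 4.61 and 8.0 in DES, a log2 difference of 2.02 (SE 0.57, adjusted p = 0.118 by edgeR). Il18 stood at 10.1 and 22.6 in CO against 27.3 and 32.0 in DES (0.67, SE 0.40, adjusted p = 0.383). Without CO B the Il18 difference was 1.33 with adjusted p = 0.0219, and without CO A that of Il1a was 2.76 with adjusted p = 0.0454. Tslp was the member with the opposite order, at 1.68 and 3.90 in CO and 1.21 and 1.11 in DES (−1.45, 95% interval −2.91 to 0.01, adjusted p = 0.207). These Tslp levels rest on 11 to 43 UMIs per section. Tnf, the macrophage cytokine that drives NF-kappaB, overlapped between conditions at 2.80 and 0.453 in CO against 4.17 and 1.52 in DES, and its difference of 0.55 (adjusted p = 0.781) turned negative without CO B (−0.23) or DES A (−0.32).

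The neutrophil and IL-1 beta genes were uneven between the DES sections. S100a9 stood at 11.7 and 0.997 CPM in CO against 168.5 and 14.8 in DES. S100a8 stood at 3.36 and 0.906 against 92.8 and 8.10, Il1b at 2.24 and 0.816 against 43.9 and 6.78, and Il1rn, which encodes the IL-1 receptor antagonist, at 0.400 and 0.363 against 21.4 and 3.75. DES A was thus the high section for all 4 genes, and DES B lay below it in each. The log2 differences were 3.58 (SE 1.49, adjusted p = 0.232), 4.29 (SE 1.32, adjusted p = 0.137), 3.78 (SE 1.04, adjusted p = 0.113) and 4.77 (SE 1.03, adjusted p = 0.0702). Without DES A they were 0.99, 1.70, 1.93 and 3.07. DESeq2 on the same counts called Il1a, Il1b and Il1rn as well as Il33, 4 members in all, and 5.83% of all genes as higher.

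Spots were then classed by which of 3 marker lists, epithelium, stroma or muscle, scored highest, which gave 611 to 735 epithelium-rich, 300 to 490 stroma-rich and 384 to 682 muscle-rich spots per section. Scores were scaled within each section, so the classes are relative and their tissue content can differ between CO and DES. None of the 9 genes was a marker. Il33 was higher in DES in every class. In epithelium-rich spots it stood at 37.2 and 41.5 CPM in CO and 344.8 and 343.9 in DES (log2 2.87, SE 0.18, adjusted p = 0.0136 by edgeR), in stroma-rich spots at 17.3 and 9.02 against 256.3 and 243.1 (4.11, SE 0.35, adjusted p = 0.0185), and in muscle-rich spots at 3.75 and 1.51 against 112.8 and 147.8 (5.34, SE 0.42, adjusted p = 0.000901). The folds were 7.31, 17.3 and 40.5. In epithelium-rich spots the call was lost without DES A (adjusted p = 0.0512) or DES B (adjusted p = 0.0831). The 3 tests share the sections and are not independent.

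In epithelium-rich spots 1 of the 8 members tested was called higher, Il33, with 3.06% of all genes called. Tslp was too low there to be tested, at 0.679 and 1.22 CPM in CO and 0.960 and 1.16 in DES. In stroma-rich spots 1 of 5 was called, Il33 again (1.26% of all genes), and in muscle-rich spots 2 of 4, Il33 and Il18 (3.74% of all genes). Il18 stood at 4.62 and 5.72 CPM in muscle-rich CO spots and at 19.6 and 18.0 in DES (log2 1.59, SE 0.38, adjusted p = 0.0495), and the call was lost with DESeq2 (adjusted p = 0.167), without the count filter (0.124), with only the top 20% of spots by score (0.173) and without DES A (0.260) or DES B (0.383). Stroma-rich Tslp stood at 4.17 and 5.51 CPM in CO against 0.558 and 0 in DES, too few UMIs to be tested.

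Il33 was enriched in epithelium-rich spots relative to the other spots of the same section, and less so in DES. Spots other than epithelium-rich held 8.17 and 4.33 CPM in CO and 202.5 and 190.2 in DES. The log2 enrichment was 2.66 (SE 0.23, adjusted p = 1.27e-05) in CO and 0.70 (SE 0.16, adjusted p = 0.0115) in DES, and the difference of −1.96 (SE 0.28, 95% interval −2.59 to −1.32) passed the test of the difference itself (adjusted p = 0.00341 by edgeR). The spot classes come from the same counts, so these p-values are likely too small. With only the top 20% of spots by score, the difference was −0.83 (adjusted p = 0.0890) and the DES enrichment 0.24 (adjusted p = 0.391). Without DES A or DES B the DES enrichment was 0.82 (adjusted p = 0.113) or 0.77 (adjusted p = 0.151).

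The other members differed in where they lay. In CO, 3 of 9 members were higher in epithelium-rich spots (29.4% of all genes were), namely Il33, Il1a (log2 2.83, SE 0.78, adjusted p = 0.0124) and Il18 (1.55, SE 0.24, adjusted p = 0.000586), and 1 was lower (26.3% of all genes were). That 1 was Tslp (−2.34, SE 0.48, adjusted p = 0.00259), at 0.679 and 1.22 CPM in epithelium-rich spots and 3.11 and 6.77 in the others. The call for Il1a was lost with the top 20% of spots (adjusted p = 0.0959). In DES, 5 of 9 were higher in epithelium-rich spots, against 11.2% of all genes. These were Il33, S100a9 (1.58, SE 0.33, adjusted p = 0.00652), S100a8 (1.47, SE 0.42, adjusted p = 0.0292), Il1b (1.22, SE 0.36, adjusted p = 0.0328) and Il18 (0.70, SE 0.22, adjusted p = 0.0437). Without DES A the calls for S100a9 (1.34, adjusted p = 0.288), S100a8 (0.45, adjusted p = 0.780) and Il1b (0.32, adjusted p = 0.807) were lost, as they were with DESeq2, and that for Il18 was lost with DESeq2 (0.150), with the top 20% of spots (0.381) and without DES A (0.196) or DES B (0.274). Of the 9 differences between the DES and CO enrichments, 1 was called, that of Il33, with 8.46% of all genes called in its direction and a median of −0.12 over all genes.

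Il33 was also richest in the spots of each section with the highest share of basal and squamous epithelial markers. Those markers (Krt14, Krt5, Trp63, Krt15, Krt6a, Krt13, Dsg3 and Sprr1a) summed to 127.5 and 377.1 CPM in CO A and B and to 12750 and 8114 in DES A and B. When the spots of a section were ordered by that sum as a share of their UMIs and divided into 4 groups of equal size, Il33 in DES A went from 80.6 CPM in the lowest group through 251 and 331 to 401 in the highest, and in DES B from 89.1 through 202 and 351 to 450. In CO B the lower 3 groups held 4.17, 5.10 and 5.69 and the highest 56.3, and in CO A the 4 groups held 16.8, 13.8, 21.0 and 37.5. The highest group was therefore the richest in all 4 sections. Spots with equal shares, including those with none of the markers, were divided by their order in the data, so the lower CO groups are partly arbitrary. The groups were not separated by general epithelial content. Outside the epithelium-rich spots the list also differed between conditions, at 8.1 and 20.8 CPM in muscle-rich CO spots against 5304 and 4665 in DES, and at 82.1 and 164 against 10380 and 6413 in stroma-rich spots. The part of these markers in the Il33 difference was not tested.

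**Figure D2:**
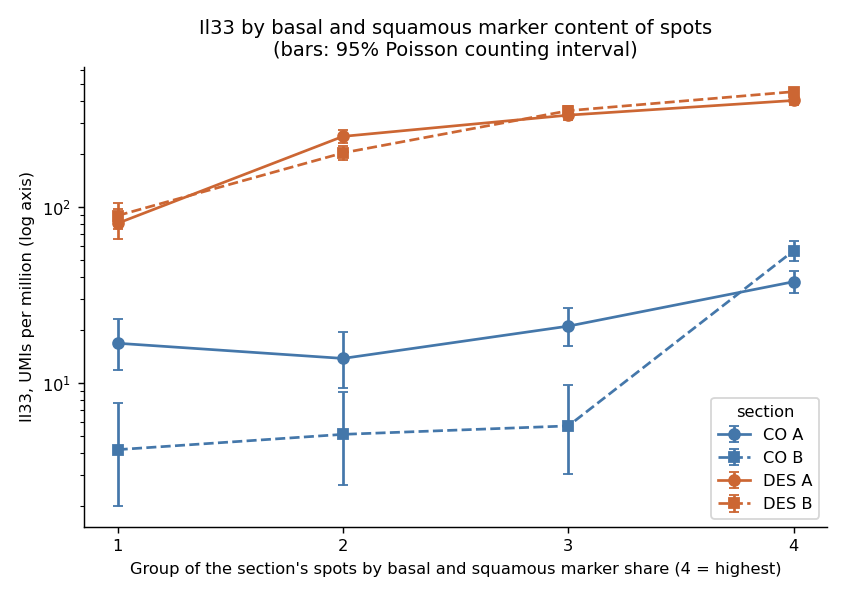
Il33 level (CPM, log axis) in 4 equal groups of each section's spots ordered by the share of UMIs from 8 basal and squamous markers (group 1 lowest, group 4 highest), with 95% Poisson bars. Both DES lines climb from about 80.6 to 89.1 CPM to 401 and 450, and CO B stays near 5 CPM until its highest group at 56.3.

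In the CO B section 1 of the authors' spot clusters carried most of the Il33. Cluster 10, with 17 spots rich in Krt13, Krt5 and Krt14, stood at 762.7 CPM (645.5 to 895) and held 57.7% of the section's Il33 UMIs, a level above either whole DES section. The other 1817 spots stood at 10.15 CPM, and these 17 spots enter the CO mean and the CO enrichment given above. No more than 9 spots held 50% of them. In DES A the highest clusters were 1 (384 CPM) and 8 (360), and in DES B cluster 7 stood at 457.5.

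Il33 lies on chromosome 19, at 29925114 to 29960718 on the plus strand of GRCm38 (GENCODE M21). RefSeq gives 2 starts, and both are shown because Il33 was the member called in every region. Each runs 5′ to 3′ on the plus strand from 250 bases before to 50 bases after the start, from RefSeq on GRCm38.p6, at chr19:29924863-29925162 and chr19:29945540-29945839, with motif matches in capitals.
Il33 start 1: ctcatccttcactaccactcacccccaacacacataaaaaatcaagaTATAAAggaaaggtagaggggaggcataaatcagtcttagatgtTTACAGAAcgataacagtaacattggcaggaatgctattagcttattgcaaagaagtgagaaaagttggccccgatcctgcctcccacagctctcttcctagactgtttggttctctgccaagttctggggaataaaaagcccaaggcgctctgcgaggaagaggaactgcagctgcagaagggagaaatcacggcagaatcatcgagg
Il33 start 2: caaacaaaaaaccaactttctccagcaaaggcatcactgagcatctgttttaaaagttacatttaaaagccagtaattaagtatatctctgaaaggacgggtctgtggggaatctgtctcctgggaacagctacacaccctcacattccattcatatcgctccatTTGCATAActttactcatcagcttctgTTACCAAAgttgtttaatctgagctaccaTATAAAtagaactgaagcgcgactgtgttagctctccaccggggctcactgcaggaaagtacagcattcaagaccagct
Windows of 300 bases were found for 8 of the 9 members, 11 windows in all. They were searched on both strands for AP-1 (TGANTCA, in 7.81% of 32851 promoter windows), C/EBP (TTNNGNAA, in 40.7%), TATA box (TATAAA, in 13.6%) and an NF-kappaB motif (in 8.46%). Start 1 of Il33 held 1 C/EBP and 1 TATA box match and start 2 held 2 C/EBP matches and a TATA box match. None of the 11 windows held the NF-kappaB letters. A match describes the letters only.

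Among the typed cells of the single-cell libraries Il33 was mostly epithelial. Cells without a type held 4009 of the 9288 Il33 UMIs in CO and 4571 of 32798 in DES. The DES library had 1 Stromal and 5 Endothelial cells, against 1326 and 341 in CO. Its shares of typed cells therefore cannot speak for those types. Epithelial cells held 72.6% of the Il33 UMIs of typed cells in CO and 95.1% in DES, and the level in them was 48.7 CPM (47.1 to 50.2) in 2583 CO cells and 152.3 (150.5 to 154.2) in 5255 DES cells, a ratio of 3.13 (3.03 to 3.24). With each cell thinned to 3000 UMIs, 11.8% of CO and 30.7% of DES epithelial cells had an Il33 UMI. The unthinned shares were 44.9% and 71.4%, at median depths of 23460 and 21900 UMIs. Lymphocytes, which should lack the gene, had thinned shares of 2.26% and 3.29% at median depths of 4033 and 5599 UMIs, and CO stromal cells 1.31%. Among types with at least 50 cells, those called Mesothelial came next at 15.9 and 20.3 CPM.

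**Figure D3:**
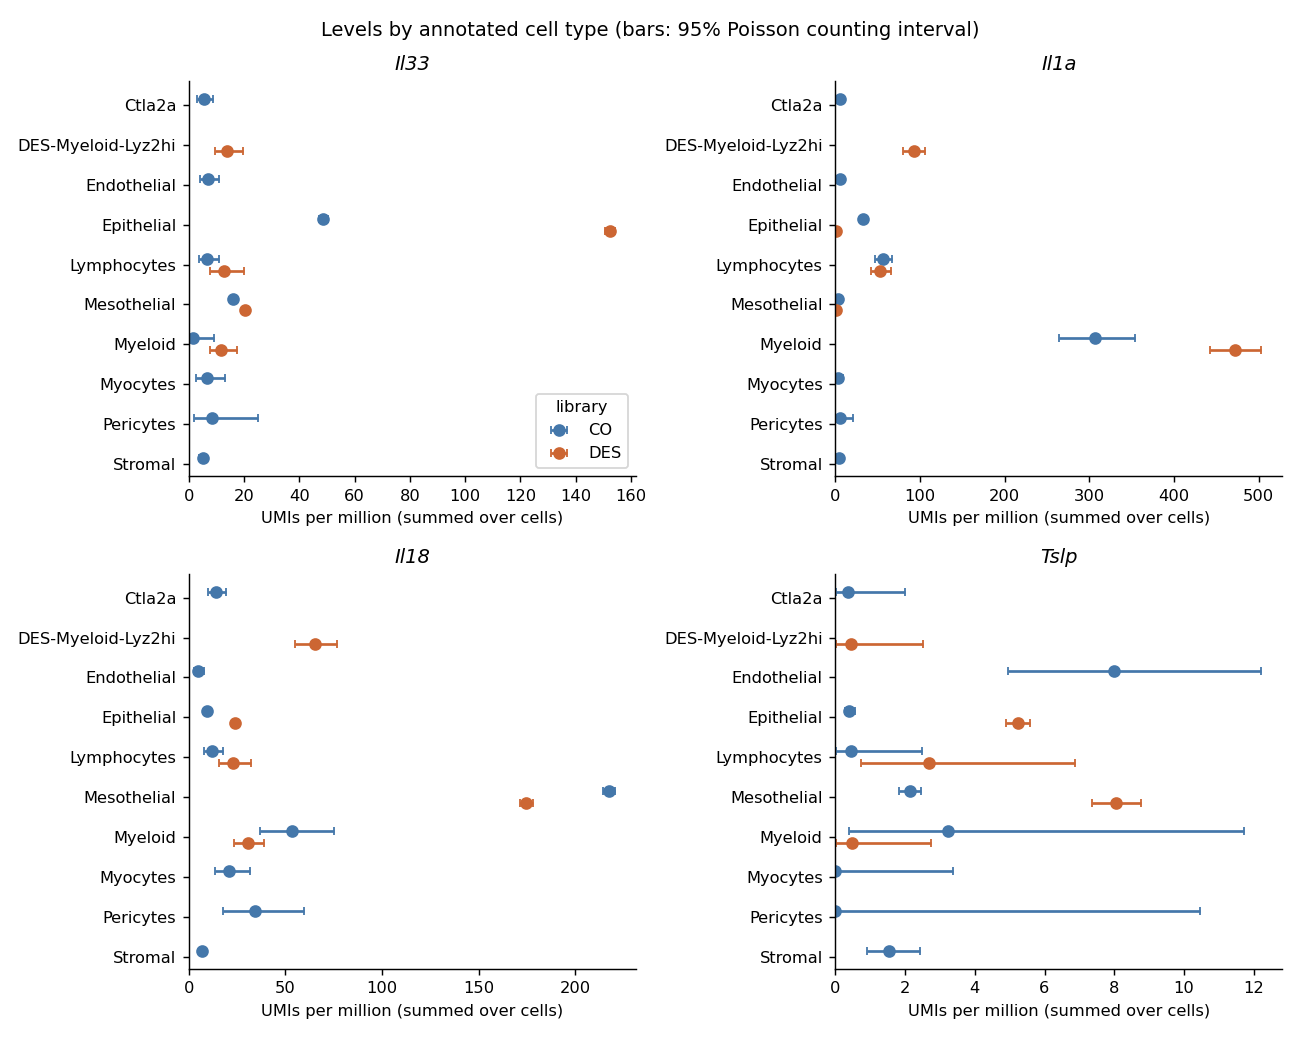
Levels of Il33, Il1a, Il18 and Tslp (CPM) by the authors' cell type, CO in blue and DES in orange, with 95% Poisson bars and 1 library per condition. Epithelial Il33 stood at 48.7 CPM in CO and 152.3 in DES, epithelial Il1a at 33.2 and 0.460, and Il18 was highest in Mesothelial cells at 217.5 and 174.8.

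Within the DES epithelium Il33 was highest in cells with basal markers. The 662 DES epithelial cells with a UMI of Trp63, the basal transcription factor, stood at 473 CPM and the 4593 without one at 120.1. The same split by at least 2 UMIs of the basal keratin Krt14 gave 479 CPM in 725 cells and 116 in the others. In CO only 6 epithelial cells had a Trp63 UMI, and the 2577 without one stood at 48.8. DES epithelial cells without Trp63 were thus also above CO. Of the clusters the authors formed on both libraries together, DES cells of cluster 8 (351 cells) stood at 759.3 CPM (738.7 to 780.4) and those of cluster 11 (257 cells) at 544.4 (521.9 to 567.7), with basal and squamous sums of 9315 and 8063 CPM. DES cells of the other joint clusters ranged from 18.2 CPM (cluster 9) to 291 (cluster 12).

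In the authors' 16 DES epithelial clusters, Il33 was highest in 14 (344.5 CPM) and 7 (313.6) and lowest in 11 (22.1) and 13 (7.36). In the 15 CO clusters it was highest in 2 (91.9) and 12 (85.4) and lowest in 14 (8.82) and 8 (4.94). The DES clusters covered 4608 of the 5255 epithelial cells, and the Il33-rich cells of joint clusters 8 and 11 were nearly all outside them. Since these counts also formed the clusters, none of the levels was tested. Across 14 cell type by library groups, the genes whose level followed Il33 most closely, out of 10155, included Slc16a11 (Pearson r = 0.967) and Cntnap2 (0.918). The groups share 2 libraries, and the correlations describe them without a test.

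**Figure D4:**
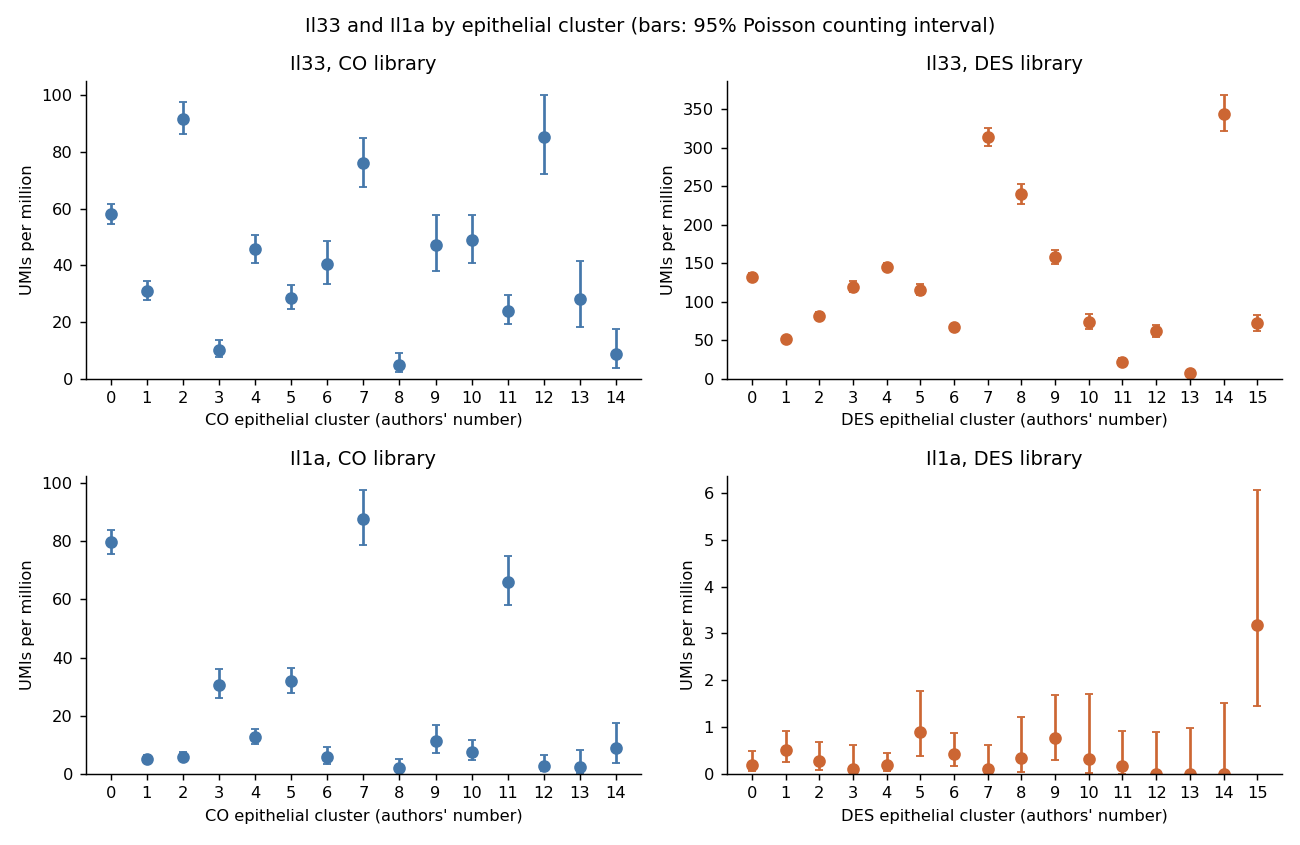
Il33 and Il1a levels (CPM, 95% Poisson bars) in the 15 CO and 16 DES epithelial clusters of the authors, numbered separately in each library. Il33 reached 91.9 CPM in CO and 344.5 in DES, while Il1a reached 87.7 in CO and 3.19 in DES.

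Il1a behaved differently in the epithelial cells. It stood at 33.2 CPM (32.0 to 34.5, 2618 UMIs) in CO epithelial cells and 0.460 (0.365 to 0.572, 81 UMIs) in DES, a level 72.3-fold lower (57.9 to 91.3). The thinned share of cells was 6.60% in CO and 0.135% in DES, and the unthinned share 28.0% and 1.14%. CO stromal cells, at a median of 8726 UMIs, had a thinned share of 0.844%. In the cells called Mesothelial the level was 3.69 and 0.263 CPM, and the CO value was no higher than that of CO stromal (4.26) or endothelial cells (5.33) and is read as background. In DES the interval of the Mesothelial value (0.153 to 0.421) overlapped that of the epithelial value. The 72.3-fold ratio thus rests on a DES level close to background. In CO, clusters 7 (87.7 CPM) and 0 (79.6) were highest and 13 (2.25) and 8 (1.98) lowest. The highest DES clusters were 15 (3.19) and 5 (0.902), on 9 and 8 UMIs, and DES clusters 12, 13 and 14 had 0 Il1a UMIs.

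The Il1a that remained in the DES library was mostly myeloid. Epithelial cells held 78.7% of the Il1a UMIs of typed cells in CO and 6.02% in DES, and Myeloid cells 5.68% and 71.5%. Cells without a type held 3447 of the 6773 Il1a UMIs in CO and 485 of 1831 in DES, at 20.3 and 11.5 CPM. Myeloid Il1a stood at 306.7 CPM in 67 CO cells and 472.2 in 228 DES cells (ratio 1.54, 1.32 to 1.81). Lymphocytes stood at 56.1 and 53.0. Of 2583 CO epithelial cells, 359 had both Il33 and Il1a (1159 with Il33, 724 with Il1a). Of 5255 DES epithelial cells, 43 had both (3751 and 60). The genes nearest to Il1a across groups were P2ry6 (0.945), Ctsc (0.937) and Ifi207 (0.931).

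Cells and sections did not order Il1a alike. Epithelium-rich spots held 2.72 and 1.57 CPM in CO A and B and 5.44 and 10.3 in DES A and B (log2 1.59, SE 0.54, adjusted p = 0.146 by edgeR), on few UMIs and without passing the test, whereas epithelial cells of the separate mice used for dissociation stood at 33.2 and 0.460. In DES A, cluster 8 stood at 22.6 CPM and held 40.5% of the section's Il1a UMIs, and in DES B cluster 7 stood at 15.5. The difference in order between the assays was not tested.

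Il1a lies on chromosome 2 at 129299610 to 129309972 on the minus strand, 54.6 kb from its neighbour Il1b at 129364570 to 129371139. Its start sequence is shown because Il1a differed most between CO and DES epithelial cells and its window held an AP-1 match, at chr2:129309923-129310222 on the minus strand of GRCm38.p6.
Il1a: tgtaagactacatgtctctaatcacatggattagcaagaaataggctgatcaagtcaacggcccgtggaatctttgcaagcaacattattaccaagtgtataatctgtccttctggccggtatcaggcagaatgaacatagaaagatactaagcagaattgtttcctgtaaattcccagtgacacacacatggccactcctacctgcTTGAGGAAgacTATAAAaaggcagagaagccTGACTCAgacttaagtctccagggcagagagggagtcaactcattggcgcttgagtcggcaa
The window held 1 AP-1, 1 C/EBP and 1 TATA box match. Of the other windows, 1 of the 3 Il1rn windows also held an AP-1 match.

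Among typed cells Il18, whose product drives interferon-gamma release, belonged mostly to the cells called Mesothelial. They held 94.6% of the Il18 UMIs of typed cells in CO and 71.8% in DES, at 217.5 CPM (214.4 to 220.7) in 6866 CO cells and 174.8 (171.6 to 178.1) in 3837 DES cells, a ratio of 0.804. Cells without a type held 11825 of the 30927 Il18 UMIs in CO and 2071 of 17794 in DES. The thinned shares of Mesothelial cells were 44.4% and 35.6% at median depths of 10440 and 12330 UMIs, against 3.87% and 6.10% in Lymphocytes. These cells had mesothelium markers at 2667 and 2727 CPM in sum and stromal markers at 18390 and 19510, so the name covers cells with both. Epithelial Il18 stood at 9.35 CPM in CO and 23.8 in DES, and Lymphocytes at 12.0 and 22.8. The thinned shares of epithelial cells were 2.38% and 5.94%, no higher than in Lymphocytes, but that group also held macrophage markers and is no clean background for Il18. CO stromal cells had 2.38%, and DES had 1 stromal cell. Among the DES epithelial clusters, cluster 7 was highest at 40.0 CPM, with a thinned share of 12.1% (8.05% to 17.2%). Epithelium-rich spots of the sections held 12.6 and 35.3 CPM in CO and 31.3 and 37.1 in DES, a log2 difference of 0.28 (adjusted p = 0.758 by edgeR) that went to −0.26 without CO A. The nearest genes across groups were Sf3b5 (0.928), Espn (0.897) and RP23-37J21.3 (0.897).

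Tslp was low in every group of cells. Epithelial cells stood at 0.393 CPM (31 UMIs) in CO and 5.24 (923 UMIs) in DES, a ratio of 13.3 (9.32 to 19.7, counting error only), and Mesothelial cells at 2.13 and 8.05. The thinned shares were 0.156% and 1.48% in epithelial cells and 0.566% and 2.30% in Mesothelial cells, while CO endothelial cells stood at 7.99 CPM on 21 UMIs. Lymphocytes had thinned shares of 0.323% and 1.41% on 1 and 4 UMIs, too few to set a background. DES Myeloid and DES-Myeloid-Lyz2hi cells stood at 0.490 and 0.449 CPM, on 1 UMI each. Within the DES epithelium it was highest in clusters 0 (11.6) and 5 (10.3) and lowest in 8 (1.5) and 13 (1.31). DES epithelial cells with Trp63 had less of it (2.49 CPM) than those without (5.52), the reverse of the order for Il33. Of 695 DES epithelial cells with a Tslp UMI, 523 also had an Il33 UMI, beside 3751 of all 5255 DES epithelial cells. In whole sections both DES values lay below both CO values, without passing the test, and in CO B the highest clusters were 5 and 3 at 13.4 CPM each. The nearest genes were Slc50a1 (0.859), Wtap (0.853) and Xab2 (0.847).

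Among typed cells, S100a8 and S100a9 were found mostly in a small number of cells that the authors' annotation places among the Lymphocytes. Cells without a type held 4018 of the 6608 S100a8 UMIs in CO and 3430 of 8302 in DES, and 6503 of 10102 and 7751 of 13930 for S100a9. That group of 423 CO and 239 DES cells was mixed, with B and plasma cell markers at 21500 and 1968 CPM, macrophage markers at 3634 and 9186, T and NK markers at 807 and 858, and neutrophil markers without Ltf, which the epithelium also expresses, at 659 and 1566. In it S100a8 stood at 881 CPM in CO and 2823 in DES (ratio 3.20, 3.04 to 3.38) and S100a9 at 1134 and 3613 (3.19, 3.04 to 3.34). In all, 29 CO and 22 DES Lymphocytes had an S100a8 UMI. Lymphocytes were then split by at least 2 UMIs of neutrophil markers, with Ltf kept in the list. The 44 CO and 41 DES cells that met this held S100a8 at 9544 and 14220 CPM and S100a9 at 12280 and 18200. The remaining 379 and 198 cells had 2 and 3 S100a8 UMIs in all. The 2 richest cells held at least 50% of the S100a8 UMIs of typed cells in each library, with 658 UMIs in 1 CO cell and 1524 in 1 DES cell, so the ratio between libraries rests on few cells.

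**Figure D5:**
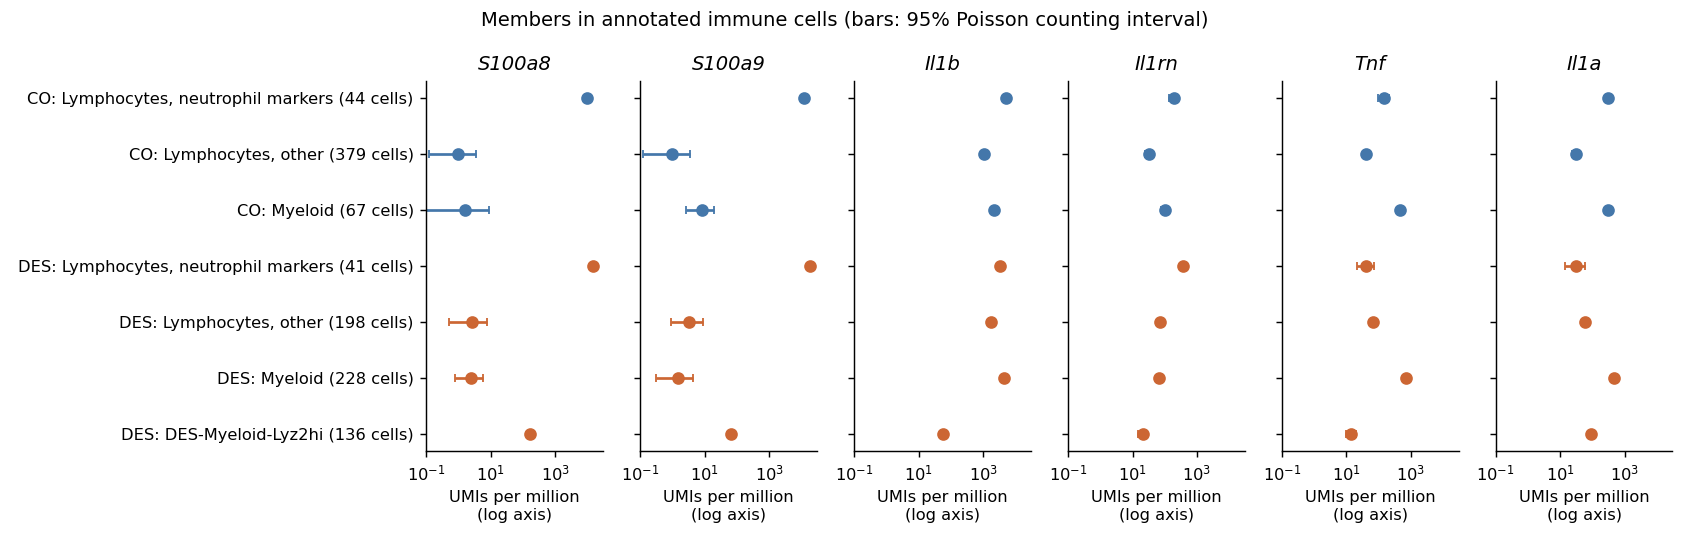
Levels (CPM, log axis, 95% Poisson bars) of S100a8, S100a9, Il1b, Il1rn, Tnf and Il1a in Lymphocytes with and without neutrophil markers (Ltf included), Myeloid cells and DES-Myeloid-Lyz2hi cells, CO in blue and DES in orange. S100a8 lies near 9544 and 14220 CPM in the cells with neutrophil markers, and Il1b and Tnf are high in Myeloid cells, at 2225 and 4532 CPM and at 453 and 700.

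The cells called DES-Myeloid-Lyz2hi, 136 in number and seen in DES alone, stood at 164 CPM for S100a8 (366 UMIs) and 65.5 for S100a9 (146 UMIs), with 145 of the S100a9 UMIs in 1 of the 5 cells with neutrophil markers. The other 131 cells stood at 137 CPM for S100a8 (298 UMIs) and 0.460 for S100a9 (1 UMI). A S100a8 UMI was seen in 63.2% of the cells of the group, and in 31.3% after thinning, against 0.231% in DES epithelial cells. In the neutrophil-marker cells, by contrast, S100a9 was the more abundant of the pair in UMIs in both libraries (2547 against 1979 in CO and 5378 against 4202 in DES). Epithelial levels were low, at 2.70 and 0.636 CPM for S100a8 and 5.20 and 2.0 for S100a9, and CO epithelial cluster 9 was the exception at 69.1 and 105 CPM. That cluster also stood highest of them for Il1b, at 63.5 CPM, and had the highest neutrophil marker sum of the CO epithelial clusters (47.3 CPM without Ltf), and the part of neutrophil RNA in it was not tested. The genes nearest to S100a8 were Chil3 (0.975), S100a9 (0.974) and Wfdc21 (0.974), and those nearest to S100a9 included S100a8 and Lat (0.953).

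In the sections these genes were concentrated in a small group of DES A spots. That group is a cluster formed on the same counts, and the positions of its spots were not examined. Cluster 8, with 61 of the 1575 spots, stood at 1341 CPM for S100a9 and 742 for S100a8 and held 65.6% and 65.8% of their UMIs. The same cluster held 71.8% of the Il1b UMIs (382 CPM), 68.2% of those of Il1rn (177) and 42.1% of those of Tnf (21.3). The other 1514 spots stood at 63.2 CPM for S100a9, still above the 14.8 of DES B and the 11.7 of CO A. In DES B cluster 7 (106 spots) held 53.4% of S100a9 at 52.6 CPM, and in CO A clusters 7 (99.5) and 5 (72.1) were highest. Neutrophil markers without Ltf summed to 8.32 and 31.6 CPM in CO A and B and to 38.2 and 13.5 in DES A and B. Of the markers in that list, Ngp was at 0 in all 4 sections and Camp and Mmp8 at 0 in both CO sections. Csf3r stood at 0.560, 1.09, 15.8 and 5.06 CPM. The other markers of the list are not given singly, so those named do not stand for the list. The summed list was higher in CO B than in DES B, an order opposite to that of Csf3r. Macrophage markers stood at 534, 1003, 2574 and 1526. Their part in the levels was not tested.

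S100a8 and S100a9 are neighbours on chromosome 3, 22.6 kb apart, at 90668978 to 90670035 on the plus strand and 90692632 to 90695721 on the minus strand. Their start sequences are set side by side because the genes had the same order over the sections but unlike levels in the DES-Myeloid-Lyz2hi cells without neutrophil markers, at chr3:90668821-90669120 (plus) and chr3:90695672-90695971 (minus) of GRCm38.p6, with matches in capitals.
S100a8: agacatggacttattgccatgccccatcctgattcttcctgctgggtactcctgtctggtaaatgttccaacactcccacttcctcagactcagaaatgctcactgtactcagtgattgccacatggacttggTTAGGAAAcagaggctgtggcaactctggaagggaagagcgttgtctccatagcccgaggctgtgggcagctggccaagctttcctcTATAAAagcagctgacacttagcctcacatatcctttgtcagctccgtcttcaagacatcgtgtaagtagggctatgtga
S100a9: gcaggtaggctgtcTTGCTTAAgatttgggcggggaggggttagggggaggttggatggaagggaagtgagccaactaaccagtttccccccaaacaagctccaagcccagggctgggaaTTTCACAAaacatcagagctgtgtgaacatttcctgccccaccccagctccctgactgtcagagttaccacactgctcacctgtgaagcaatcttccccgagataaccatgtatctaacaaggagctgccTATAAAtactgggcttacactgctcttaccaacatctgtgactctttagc
S100a8 held 1 C/EBP match and S100a9 2, and both held a TATA box match.

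Il1b and Tnf, like Il1a, had their highest levels in Myeloid cells among the cell types. In Myeloid cells Il1b stood at 2225 CPM (2109 to 2346) in CO and 4532 (4440 to 4625) in DES, a ratio of 2.04 (1.92 to 2.16), and Tnf at 453 and 700, a ratio of 1.55 (1.36 to 1.76). Thinned shares of Myeloid cells were 76.1% and 81.2% for Il1b and 43.3% and 61.0% for Tnf, at median depths of 7161 and 8648 UMIs, against 1.13% and 0.731% of epithelial cells for Il1b. Of 228 DES Myeloid cells, 193 had Il1b, 170 had Tnf and 160 had both. Macrophage markers summed to 12490 CPM in CO and 27580 in DES Myeloid cells, and their part in the ratios was not tested. Lymphocytes held Il1b too, at 1392 and 2092 CPM (1.5, 1.43 to 1.58), and their cells without neutrophil markers stood at 1032 and 1760. Cells without a type held 7853 of the 13153 Il1b UMIs in CO and 5833 of 19145 in DES. Among typed cells the largest share of Il1b UMIs was in Lymphocytes in CO (59.0%, Myeloid 25.9%) and in Myeloid cells in DES (69.4%, Lymphocytes 23.4%), with 67 and 228 Myeloid cells captured.

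DES-Myeloid-Lyz2hi cells had far lower levels of these cytokines, at 57.5 CPM for Il1b and 14.4 for Tnf. Il1rn stood at 99.0 and 65.2 CPM in CO and DES Myeloid cells and at 47.2 and 128 in Lymphocytes (ratio 2.72, 2.13 to 3.48), where DES cells with neutrophil markers reached 362 CPM against 193 in CO. Its epithelial level was 1.5 in CO and 0.471 in DES. Tnf in Lymphocytes stood at 50.3 and 63.1, a ratio whose interval of 0.945 to 1.67 includes no difference, and in epithelial cells at 2.88 and 0.573. In CO, epithelial cluster 11 was the highest for Tnf (16.5 CPM) and Il1rn (9.83). The genes nearest to Il1b were Pld4 (0.987), Pilra (0.986) and Ms4a6c (0.983), those nearest to Il1rn were Was (0.991), AC121847.1 (0.991) and Bin2 (0.990), and those nearest to Tnf were Siglece (0.988), RP24-456G16.4 (0.988) and Ccl4 (0.987).

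Of 49 further genes of these pathways, 42 could be tested in whole sections, and 3 were higher in DES and 0 lower by edgeR, with 2.67% and 2.63% of all genes called. At an unadjusted p under 0.05 by edgeR the counts were 7 and 4. The share of all genes at that threshold is not given here, so no excess is read from them. DESeq2 called 6 and 1, with 5.83% and 6.87% of all genes called. Among receptors 2 of 11 tested were higher. Il1r2, a decoy receptor that binds IL-1 without signalling, stood at 1.12 and 1.99 CPM in CO A and B and 30.2 and 15.1 in DES A and B (log2 3.65, SE 0.48, adjusted p = 0.0291 by edgeR), and Il7r, which pairs with Crlf2 as the TSLP receptor, at 0.480 and 0.544 against 4.83 and 5.26 (3.07, SE 0.42, adjusted p = 0.0304). Both were called in epithelium-rich spots as well (4.06 and 3.77, adjusted p = 0.0266 and 0.0365). Without DES A or DES B the whole-section calls were lost for Il1r2 (adjusted p = 0.124 and 0.0712) and Il7r (0.204 and 0.242), and so were the epithelium-rich calls for Il1r2 (0.110 and 0.0831) and Il7r (0.253 and 0.282). Il1rl1, the IL-33 receptor, was too low to be tested at 0.560, 0.816, 1.54 and 0.304 CPM. Crlf2 stood at 30.2 and 50.6 in CO and 55.2 and 41.4 in DES (0.05, adjusted p = 0.940), and the TNF receptor Tnfrsf1a at 121.9 and 150.5 against 172.0 and 147.8 (0.02, adjusted p = 0.956).

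Among NF-kappaB targets 1 of 12 tested was higher, Icam1, an adhesion molecule for leukocytes, at 21.2 and 18.3 CPM in CO and 64.3 and 53.1 in DES (log2 1.36, SE 0.19, adjusted p = 0.0312), a call lost without DES A (1.24, adjusted p = 0.252) or DES B (1.44, adjusted p = 0.202). In epithelium-rich spots Icam1 was not called (1.89, adjusted p = 0.0606) except with DESeq2 (1.90, adjusted p = 0.00060), without the count filter (1.90, adjusted p = 0.0318) and without CO A (2.56, adjusted p = 0.00775) or CO B (1.46, adjusted p = 0.0132). Lcn2 stood at 8116 and 884 in CO and 1395 and 1321 in DES (−1.96, adjusted p = 0.313), and the neutrophil chemokine Cxcl5 at 49.9 and 0.725 against 264.7 and 54.7 (2.40, adjusted p = 0.441). CO A was the higher CO section for both. None of 9 processing genes and adaptors, 6 inhibitors or 4 other family members tested was called by edgeR. At an unadjusted p under 0.05 by edgeR there were 2 processing genes, 1 higher and 1 lower, 0 inhibitors and 1 other family member, lower. DESeq2 called 1 processing gene as higher, 0 inhibitors and 1 other family member as lower. The share of all genes at the unadjusted threshold is not given here. Pycard, the inflammasome adaptor, stood at 140.3 and 81.7 against 306.2 and 304.8 (1.25, adjusted p = 0.0929), Irak1 at 63.3 and 49.7 against 62.3 and 62.0 (−0.07, since the fits scale libraries by TMM and not by CPM alone), Nfkbia at 209.4 and 233.1 against 314.4 and 315.6 (0.30), Tollip at 35.3 and 33.9 against 41.7 and 43.4 (0.09), Hmgb1 at 143.4 and 119.2 against 187.6 and 185.6 (0.30) and Il1f6 at 41.7 and 0.816 against 9.32 and 2.83 (−2.06). Median log2 differences were 0.14 for receptors, 0.09 for targets, −0.11 for processing genes, 0.01 for inhibitors and −0.88 for the other family members, against −0.01 over all genes tested.

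Receptor levels in single cells are given for the groups named only, so they do not place the receptors among all cell types. Il1rl1 stood at 7.12 and 11.4 CPM in CO and DES Lymphocytes and at 0.0635 and 0.0114 in epithelial cells. Il18r1, the IL-18 receptor, stood at 19.9 and 83.2 CPM in CO and DES epithelial cells. Of the TSLP receptor genes, Il7r stood at 234 CPM in DES-Myeloid-Lyz2hi cells and 149 in DES Lymphocytes, and Crlf2 at 114 in the former and 99.5 in DES Myeloid cells. Il1rl1 rests on 16 and 17 UMIs in Lymphocytes.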

How the data were processed

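The 9 members, the pathway and marker lists and the tests were chosen with earlier results of these data known. The authors ran bcl2fastq 2.20.0.422, Cell Ranger 3.0.1 for single cells and Space Ranger 1.2.2 for sections on mm10, per the submitters' processing notes, removed potential doublets with scran, and deposited raw UMI counts with cell types and clusters. The deposited counts were used as they stood, and no column belonged to another sample (0). Cell levels were summed UMIs as CPM, and shares of cells came after thinning to 3000 UMIs, with Clopper-Pearson intervals. A limit of 3 UMIs was set for a level of 0, and the exact Poisson interval reaches slightly higher. Section sums were tested with edgeR 4.0.16 (R 4.3.3, TMM, filterByExpr, quasi-likelihood), after a check on made counts with known answers. SE is the log2 fold change divided by the root of F. In the comparisons of DES with CO the edgeR p-values rest on the spread between 2 mice a condition. The comparisons of epithelium-rich with other spots had section as a block, so they rest on how the region difference varied between sections. All fits share information on spread between genes. Alternatives were DESeq2 1.42.0, its size factors, no filter beyond 1 count, the top 20% of spots, the study's stromal clusters and leaving out each section. Named were all members, pathway genes that passed in whole sections or epithelium-rich spots or were the 2 most abundant of their list, the 3 genes nearest each member (at least 100 UMIs in the member, 20 CPM, 50 cells a group) and, for some members, the highest and lowest clusters. Il1rl1 and Il18r1 were named outside that rule, as the receptors for IL-33 and IL-18. Epx, an eosinophil marker, had no row in the single-cell table. Tslp was given no position or start sequence, and some of the nearest genes are not reported here.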

Additional observations from a re-analysis of the deposited data

Results flagged for a closer look

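The difference of Il33 enrichment in epithelium-rich spots between DES and CO sections was −1.96 on the log2 scale (adjusted p = 0.00341 by edgeR). It is listed because the effect of region differed between the conditions in a test of the difference itself. The enrichment was 2.66 in CO and 0.70 in DES, with epithelium-rich spots above the others in all 4 sections. In CO B, 17 spots of cluster 10 held 57.7% of the Il33 UMIs and enter the CO enrichment, and no fit was run without them. With the top 20% of spots the difference was −0.83 (adjusted p = 0.0890) and the DES enrichment 0.24 (adjusted p = 0.391), and the DES enrichment was not called without DES A (0.82, adjusted p = 0.113) or DES B (0.77, adjusted p = 0.151).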

How the results depend on the processing

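No paired analysis was run because the letters A and B name different mice in CO and DES, and no litter, batch or day shared by letter is stated. Counts of called genes changed with the tool. DESeq2 gave 1791 genes in whole sections against 747 with edgeR, 1675 against 697 in epithelium-rich spots, 440 against 205 in stroma-rich spots, 2512 against 3906 for epithelium-rich against other DES spots and 1051 against 1881 for the difference of enrichments. Without a count filter the counts were 1047 in epithelium-rich, 86 in muscle-rich (700 with the filter) and 1373 in stroma-rich spots. The top 20% of spots gave 1854 for DES enrichment, 1201 for the difference and 311 in muscle-rich spots, and the study's stromal clusters gave 131. Leaving out 1 section gave 3 to 2819 in whole sections, 0 to 2395 in epithelium-rich, 134 to 1441 in stroma-rich and 86 to 2131 in muscle-rich spots, 6728 to 8166 for CO enrichment (7675 with all), 1357 to 6352 for DES enrichment and 336 to 4214 for the difference. The 0 was edgeR without DES B, with 1646 genes at an unadjusted p under 0.05. The cause was not tested, and a lone section was assumed to vary like the other condition. Leaving out 1 section also turned signs. For Tnf the values ran from −0.32 to 2.42 in whole sections (below 0 without CO B or DES A), from −0.85 to 2.33 in epithelium-rich spots (the same 2 sections), from −0.23 to 1.02 for DES enrichment (DES A) and from −1.44 to 0.052 for the difference (above 0 without CO A). For Il18 in epithelium-rich spots they ran from −0.26 (without CO A) to 1.15, and for S100a9 in stroma-rich spots from −0.79 (without DES A) to 4.77. CO enrichment ran from −5.15 to 5.09 (without CO B) for Il1rn and, lowest without CO A, from −1.10 to 0.58 for Il1b, from −3.15 to 1.37 for S100a8 and from −3.30 to 1.11 for S100a9. DES enrichment of Tslp ran from −0.84 to 0.18 (without DES A), and the difference for Il1rn from −3.35 (without CO B) to 6.90. DESeq2 turned CO enrichment of Il1b (−0.089), S100a8 (−0.63) and S100a9 (−0.74), and the top 20% of spots turned them too (−1.24, −0.94 and −0.61), as well as the difference for Il1a (0.56). DESeq2 size factors kept all 59 calls and directions. Of 404 cell levels with a ratio, totals without the 20 most abundant genes moved 18 by over 1.5 times, means over cells 66, a filter at 1000 UMIs and 20% mitochondrial UMIs 3 and dropping shared barcodes 1. Depth limits Il1rn in CO sections (5 and 4 UMIs), Tnf (5 to 38) and Tslp (11 to 43). It also limits Il1a (9 UMIs), Il1b (9), S100a8 (10) and S100a9 (11) in CO B.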
